A study of Mus musculus with 9 samples.

Results

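The Fc gamma receptors bind the constant region of IgG on the surface of macrophages, monocytes, neutrophils and other immune cells. The set described here was taken by gene name and holds 7 of the 28481 genes in the deposited table. It comprises the activating receptors Fcgr1, Fcgr3 and Fcgr4, the inhibitory receptor Fcgr2b, the transmembrane adaptors Fcer1g and Tyrobp, and the tyrosine kinase Syk. RNA was sequenced from the epididymal fat pads of mice, with 5 Control libraries and 4 UBKO libraries, and every library came from an animal given CL316,243, a beta3-adrenergic agonist that drives browning of white fat. The UBKO genotype is a deletion of Ctnnb1, the gene for beta-catenin, by a Cre recombinase under Ucp1, a promoter active in brown and beige adipocytes. The sources used here give no genotype for the Control animals beyond that word, and no age, sex or strain. The deletion was directed at UCP1-positive cells, and the libraries were made from whole tissue, which also holds immune, vascular and stromal cells.

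When IgG-coated material clusters an activating receptor, Src family kinases phosphorylate paired tyrosines, called an ITAM, in the common gamma chain encoded by Fcer1g. Syk docks on the phosphorylated ITAM and passes the signal to phospholipase C, PI3 kinase and the actin machinery of phagocytosis. Fcgr2b carries an inhibitory motif, called an ITIM, in its own tail and recruits the lipid phosphatase encoded by Inpp5d. Tyrobp, also called DAP12, is an ITAM adaptor known for pairing with Trem2 and other myeloid receptors. In adipose tissue these genes are best known from macrophages.

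Total counts per library ran from 15308480 to 17632709. Ctnnb1, the targeted gene, had 339, 360, 294, 286 and 276 CPM (counts scaled to library size with the trimmed mean of M values, TMM) in Control replicates 1 to 5. It had 180, 210, 307 and 199 CPM in UBKO replicates 1 to 4. The library labelled UBKO replicate 3 lay inside the Control range, and the difference did not pass the test (log2 difference -0.48, SE 0.17, edgeR quasi-likelihood adjusted p = 0.0976). With that library left out the difference was -0.66 and passed (0.0328). It also passed under total-count scaling (-0.88, 0.0123), which shifted the median over all genes to -0.393. It did not pass without Control replicates 1 and 2 (-0.36, edgeR adjusted p = 0.289) or in the authors' deposited comparison (-0.85, q = 0.404). Counts over the whole gene also include cells that were not targeted. The adipocyte hormone Adipoq was abundant in both groups, at a mean of 1480 CPM in Control and 1960 CPM in UBKO. Control replicates 1 and 2 held transcripts of the epididymis, whose 12 listed markers summed to 19600 and 19000 CPM there and to at most 3.43 CPM in the other libraries. Calls named below that end when these libraries are left out are given with and without them, as are the counts of several lists. The labels do not say whether each library came from a separate animal, so p-values measure the spread between libraries.

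All 7 genes were lower in UBKO, by 4.26-fold for Fcgr2b to 10.1-fold for Fcgr1 in mean CPM. Each passed the edgeR test at an adjusted p under 0.05, against 7.56% of the 16123 genes tested that were called lower and 3.88% that were called higher. For each of the 7, every Control library lay above every UBKO library, as it did for 9.11% of the genes tested. The median log2 difference of the set was -2.59, beside -0.005 over the genes tested, and 2.33% of those genes had a difference at or below that of the least changed member. In bulk tissue, fewer cells of a type and less RNA per cell cannot be told apart. The 16 macrophage markers, which include Csf1r, Adgre1 and C1qa, summed to 1350 to 2940 CPM in Control and to 391 to 494 CPM in UBKO. Of these, 15 were called lower, the exception being Mertk at -0.04, and no macrophage marker was at 0. Without Control replicates 1 and 2, 14 of 16 were lower. The Cd14 call ended there (edgeR adjusted p = 0.0383 with these libraries and 0.0633 without). The part of the macrophage markers in the fall of the 7 genes was not tested.

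**Figure D1:**
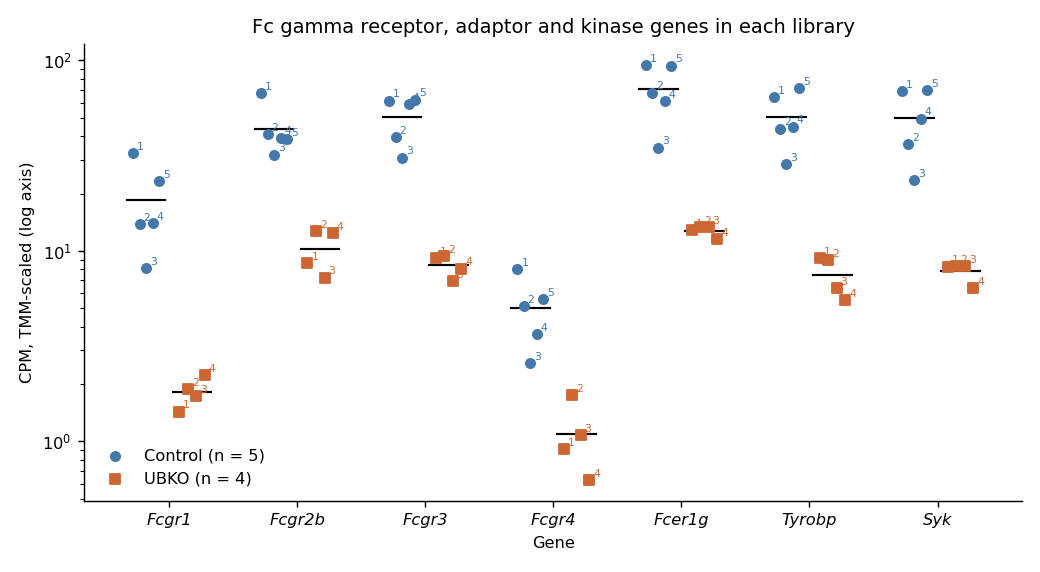
TMM-scaled CPM on a log axis of the 7 genes in each library, Control and UBKO, with the group means marked. The points of the groups do not overlap for any gene, and the fold difference in means runs from 4.26 for Fcgr2b to 10.1 for Fcgr1.

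Fcgr1 encodes the high-affinity receptor for monomeric IgG and lies on chromosome 3 (chr3:96282909-96293969, minus strand, mm10, ENSMUSG00000015947). Its level was 32.5, 13.8, 8.14, 14 and 23.3 CPM in Control replicates 1 to 5, and 1.43, 1.88, 1.72 and 2.22 CPM in UBKO replicates 1 to 4. The lowest Control library was 3.66 times the highest UBKO library. The log2 difference was -3.34 (SE 0.41, edgeR adjusted p = 0.00194), the largest of the 7. Controls were also the most spread for this gene, with a coefficient of variation of 52.3%, beside 18.2% in UBKO. The UBKO values rest on 22 to 32 reads per library.

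The other 3 receptor genes lie close together on chromosome 1. Fcgr3 encodes a low-affinity activating receptor for IgG complexes (chr1:171051174-171064935, minus strand, ENSMUSG00000059498). Its level was 61.5, 39.7, 30.9, 58.8 and 62.2 CPM in Control and 9.12, 9.38, 6.96 and 8.06 CPM in UBKO. The 4 UBKO libraries sat within a narrow band, and Control replicate 3 was the lowest of its group. The mean fell from 50.6 ± 14.4 (SD, n = 5) to 8.38 ± 1.11 (SD, n = 4), a log2 difference of -2.59 (SE 0.23, edgeR adjusted p = 0.0013).

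Fcgr4 encodes the activating receptor for IgG2a, IgG2c and IgG2b (chr1:171018920-171029761, plus strand, ENSMUSG00000059089). It was the least abundant member in CPM, at 8.01, 5.14, 2.57, 3.65 and 5.59 in Control and 0.912, 1.75, 1.08 and 0.626 in UBKO. UBKO libraries held 9 to 27 reads, so counting error is largest here, and the lowest Control library was 1.47 times the highest UBKO library. The log2 difference was -2.19 (SE 0.40, edgeR adjusted p = 0.00988). When the library labelled UBKO replicate 3 was left out, this p was 0.0407.

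Fcgr2b encodes the only inhibitory receptor of the family (chr1:170958617-170976547, minus strand, ENSMUSG00000026656). Its level was 67.3, 41.0, 32.0, 39.3 and 38.6 CPM in Control and 8.66, 12.7, 7.24 and 12.4 CPM in UBKO. Control replicate 1 stood above the other 4 controls, which lay between 32.0 and 41.0. The log2 difference was -2.09 (SE 0.26, edgeR adjusted p = 0.00194), the smallest of the 7.

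The coding strands that carry the signalling motifs are shown because they hold the tyrosines that pass or stop the signal. They come from GENCODE M21 transcripts on GRCm38, are read 5′ to 3′, and have the tyrosine codons in capitals. A script searched the translated coding sequence for a pair of tyrosines in ITAM spacing and found 1 match in Fcer1g, 1 in Tyrobp and 0 in the 4 receptors and Syk. The looser ITIM spacing is not particular to Fcgr2b, where it matched 1 time, in the tail after the last hydrophobic stretch. Over whole coding sequences it also matched 3 times in Fcgr1 and 1 time each in Fcgr4, Fcer1g and Tyrobp.
Fcer1g, codons 65 to 79: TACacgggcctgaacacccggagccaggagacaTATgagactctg
Tyrobp, codons 92 to 106: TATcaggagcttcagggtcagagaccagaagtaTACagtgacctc
Fcgr2b ITIM, codons 317 to 322: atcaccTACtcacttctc

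Fcgr2b and Fcgr3 have similar extracellular domains, which bears on how far their counts can be separated. Their longest identical coding run is 129 bases, coding positions 278 to 406 of Fcgr2b, shown here.
Fcgr2b and Fcgr3 shared run: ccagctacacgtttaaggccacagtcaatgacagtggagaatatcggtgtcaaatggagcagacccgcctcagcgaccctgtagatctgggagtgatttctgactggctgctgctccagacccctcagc
Of the 50-base windows of Fcgr3 transcripts, 12.8% also occurred in Fcgr2b, and 4.75% of those of Fcgr2b occurred in Fcgr3. No other pair of the 4 receptors shared a window. How reads that fit both genes were counted is not stated, so the values of this pair are uncertain to that extent.

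Fcer1g encodes the gamma chain that the activating receptors need for surface expression and signalling (chr1:171229572-171234365, minus strand, ENSMUSG00000058715). Its level was 94.9, 67.7, 34.8, 61.2 and 93.9 CPM in Control and 12.8, 13.3, 13.3 and 11.5 CPM in UBKO. The UBKO libraries differed little, with a coefficient of variation of 6.41%, while the controls spread over 35.5%. The log2 difference was -2.47 (SE 0.28, edgeR adjusted p = 0.00145).

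Tyrobp lies on chromosome 7 (chr7:30413760-30417585, plus strand, ENSMUSG00000030579). It had 64.0, 43.8, 28.5, 44.9 and 71.3 CPM in Control and 9.12, 8.93, 6.38 and 5.49 CPM in UBKO. The groups did not overlap, and the lowest Control library was 3.13 times the highest UBKO library. The log2 difference was -2.75 (SE 0.29, edgeR adjusted p = 0.00133).

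Syk, the kinase that both adaptors recruit, lies on chromosome 13 (chr13:52583173-52648792, plus strand, ENSMUSG00000021457). Its level was 68.9, 36.4, 23.6, 49.5 and 69.7 CPM in Control and 8.27, 8.35, 8.32 and 6.40 CPM in UBKO. UBKO replicate 4 was below the other 3 UBKO libraries, which were nearly equal. The log2 difference was -2.66 (SE 0.32, edgeR adjusted p = 0.00187).

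Control replicate 3 was the lowest control for all 7 genes, and the highest was replicate 1 for 4 genes and replicate 5 for the other 3. The summed macrophage markers also were lowest in Control replicate 3, at 1350 CPM, and highest in replicates 5 and 1, at 2940 and 2760 CPM. No gene of the table overlaps any of the 7.

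Between genes, levels were compared as FPKM, which divides by transcript length. In Control the adaptors stood above the rest, with Fcer1g at 49.7 ± 21.2 FPKM (SD, n = 5) and Tyrobp at 43.8 ± 17.6. Fcgr3 followed at 14.8 ± 4.87, then Fcgr1 at 7.21 ± 4.43, Fcgr2b at 6.56 ± 2.75, Fcgr4 at 4.54 ± 2.32 and Syk at 4.10 ± 1.92. Only the step from Tyrobp to Fcgr3 had ranges that did not overlap between neighbours, in either group. In UBKO, Fcer1g was at 6.85 ± 0.744 FPKM (SD, n = 4), Tyrobp at 5.01 ± 1.46 and Fcgr3 at 1.90 ± 0.344. Fcgr2b was at 1.18 ± 0.342, Fcgr4 at 0.762 ± 0.378, Fcgr1 at 0.535 ± 0.0916 and Syk at 0.497 ± 0.0801. By these means Fcgr1 was the fourth gene in Control and the sixth in UBKO, but it was above Fcgr2b in only 2 of 5 Control libraries and above Syk in 2 of 4 UBKO libraries.

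The summed FPKM of the 4 receptors was 33.1 ± 13.7 in Control and 4.37 ± 0.954 in UBKO. Fcgr3 made up 45.9 ± 6.26% of it in Control and 43.7 ± 4.48% in UBKO. The share of Fcgr1 was 20.5 ± 4.29% in Control, between 16.3% and 26.2%, and 12.5 ± 2.50% in UBKO, between 10.3% and 15.2%, so the ranges did not overlap. The share of inhibitory Fcgr2b was 20.3 ± 3.65% and 26.8 ± 4.43%, with ranges that met between 22.8% and 24.8%. Fcgr4 took 13.4 ± 2.48% and 17.0 ± 5.59%.

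**Figure D2:**
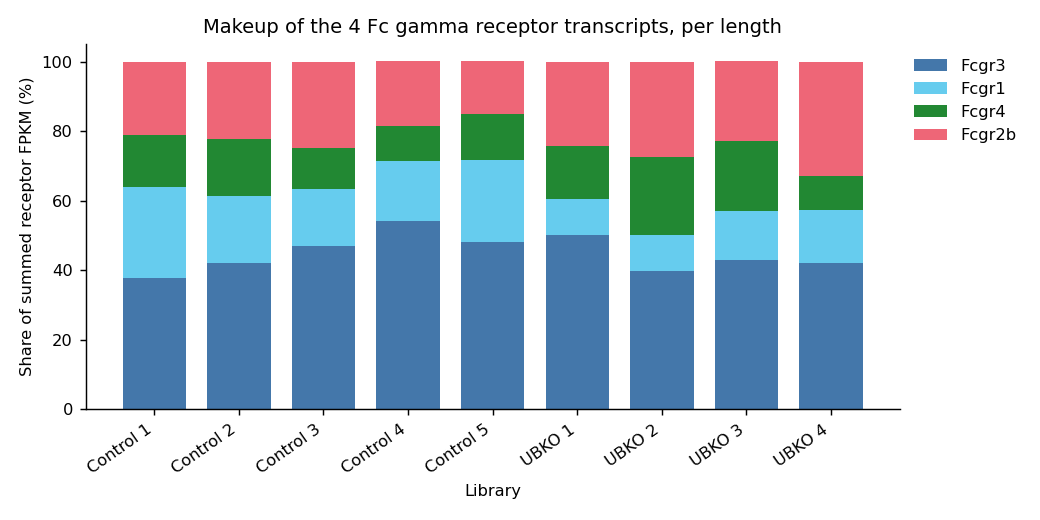
Share of the summed FPKM of the 4 IgG receptors taken by each, in percent, for every library. Fcgr3 holds the largest share in all libraries, and Fcgr1 holds 16.3% to 26.2% in Control and 10.3% to 15.2% in UBKO.

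Ratios within each library ask whether the members fell in proportion to each other and to macrophage markers. Among 11 ratios, each the log2 ratio of CPM + 0.5 tested by an exact two-sided permutation test over the 9 libraries, 0 passed at an adjusted p under 0.05, and 4 had an unadjusted p under 0.05. The smallest p that 5 against 4 libraries allow is 0.0159. The ratio of Fcgr1 to Fcgr2b went from -1.33 ± 0.46 (SD, n = 5) to -2.19 ± 0.28 (SD, n = 4) on the log2 scale, a difference of -0.86 (exact permutation p = 0.0317, adjusted p = 0.116 over 11). Fcgr3 to Fcgr2b differed by -0.45 and Fcgr4 to Fcgr2b by 0.28, and neither passed (exact permutation adjusted p = 0.196 and 0.388). The sign of the Fcgr4 ratio rests on the offset: with none it was -0.11 (exact permutation adjusted p = 0.778). Fcer1g to Tyrobp differed by 0.29 (exact permutation adjusted p = 0.196).

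Set against the geometric mean of the 16 macrophage markers, Fcgr3 went from -0.70 ± 0.11 to -0.97 ± 0.12 and Tyrobp from -0.72 ± 0.17 to -1.15 ± 0.16. For both, all UBKO libraries lay below all Control libraries, with differences of -0.28 and -0.43 at the smallest exact permutation p, 0.0159, and an adjusted p of 0.0873. Both rest on the choice of markers: against Csf1r and Adgre1 alone, the difference was 0.06 for Fcgr3 and -0.10 for Tyrobp (exact permutation adjusted p = 0.576 and 0.504), and those for Fcer1g and Syk turned to 0.20 and 0.05. Fcgr1 differed by -0.68 (exact permutation adjusted p = 0.131) and Fcgr4 by 0.46 (exact permutation adjusted p = 0.196). With no offset these 2 differences were -0.93 and 0.08 (exact permutation adjusted p = 0.0873 and 0.778). The differences were 0.18 for Fcgr2b, -0.14 for Fcer1g and -0.28 for Syk, with exact permutation adjusted p of 0.413, 0.402 and 0.196. A ratio near its Control value does not show that it is unchanged. On log2(FPKM + 1), 7 of the 11 passed, among them Fcgr3 (-0.23) and Tyrobp (-0.67) to macrophage markers and Fcgr3 to Fcgr2b (-0.65), each at an exact permutation adjusted p of 0.0349, and the Syk ratio turned to 0.48. Length and library scale cancel when such ratios are compared between groups, so the log2(FPKM + 1) setting differs from the main one through its offset. That offset of 1 exceeds the UBKO means of Syk, 0.497 FPKM, and Fcgr1, 0.535 FPKM. With no offset, 0 ratios passed. The cause of the differences between the groups was not tested.

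**Figure D3:**
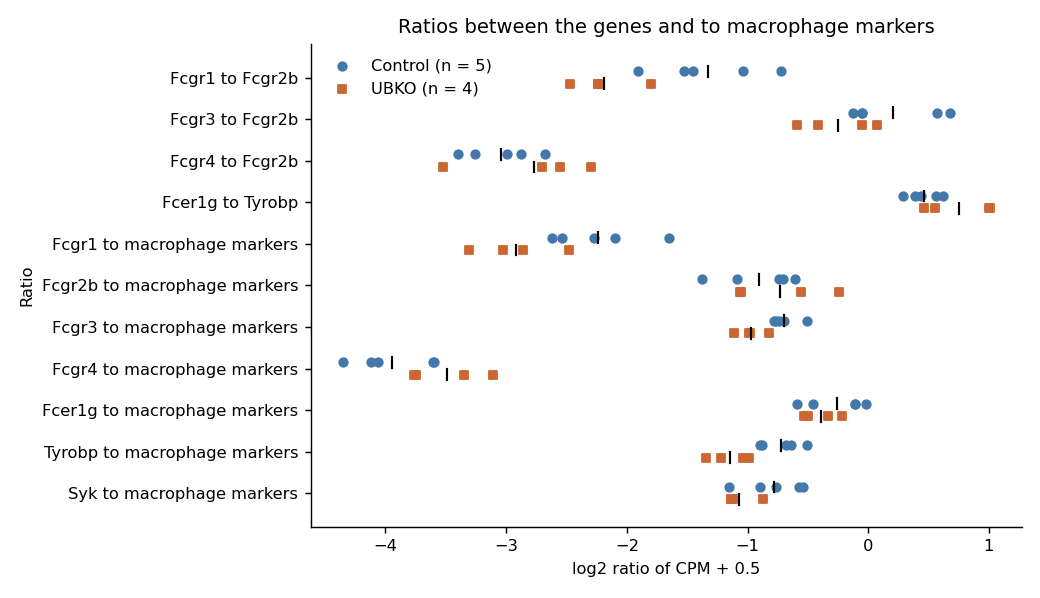
Log2 ratios of CPM + 0.5 in each library for the 11 ratios, Control and UBKO, with group means. The Fcgr3 and Tyrobp ratios to the 16 macrophage markers are lower in every UBKO library than in every Control library, with differences of -0.28 and -0.43 that become 0.06 and -0.10 against Csf1r and Adgre1 alone.

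Fcgr2b, Fcgr4, Fcgr3 and Fcer1g lie within a span of 275.7 kb on chromosome 1 that holds 8 other genes of the table. Of these, 5 could be tested and 0 were called by edgeR, while 1 had an unadjusted p under 0.05 and 1 was called higher by DESeq2. The mitochondrial complex II gene Sdhc was at 0.36 (SE 0.13, adjusted p = 0.0962), Tomm40l, of the mitochondrial import receptor family, at 0.20 (0.461), Cfap126 at 0.04 (0.973) and Pcp4l1 at -0.16 (0.839), each a log2 difference with its edgeR adjusted p. Gm2962, the nearest tested gene before Fcgr2b, was higher (log2 difference 0.84, edgeR adjusted p = 0.0119). Hcst, the adaptor DAP10 that lies next to Tyrobp, was at -1.02 (edgeR adjusted p = 0.191).

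**Figure D4:**
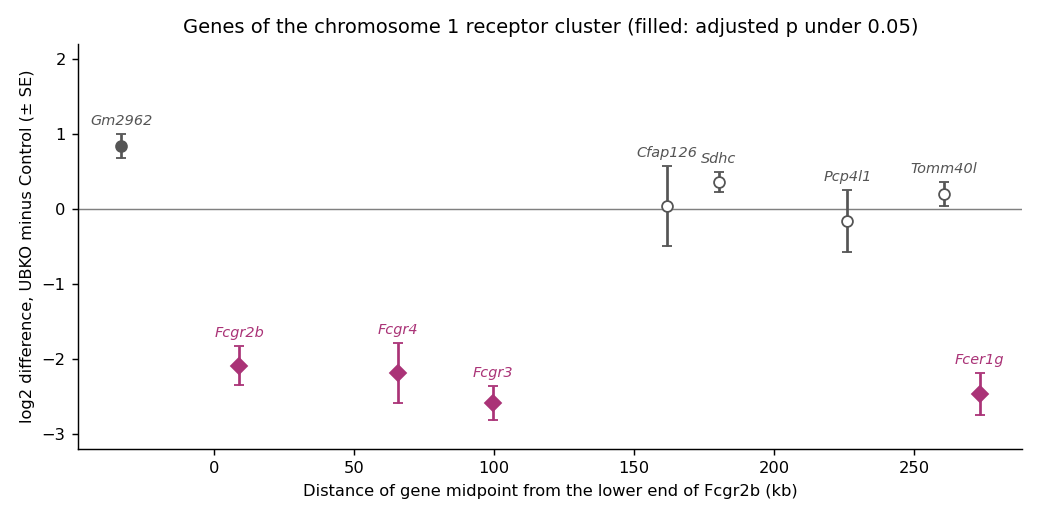
Log2 difference, UBKO minus Control, with its SE, of the 4 members on chromosome 1 (diamonds) and of 5 other genes in or next to their span (circles), by distance from the lower end of Fcgr2b in kb. Filled symbols passed the test: the members lie between -2.59 and -2.09 and Gm2962 at 0.84, while the open circles lie between -0.16 and 0.36.

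The sequence before a RefSeq start of each activating receptor is shown because all 3 genes fell. The RefSeq promoter table (GRCm38.p6) matched 6 of the 7 members and Tyrobp was not matched. For Fcgr1 the RefSeq start is also the start of the gene as given above. The RefSeq starts of Fcgr2b, Fcgr3, Fcgr4, Fcer1g and Syk lie inside the gene coordinates given above. The printed Fcgr4 stretch stops 6 bases before its RefSeq start, where the annotated exon begins. The whole printed Fcgr3 stretch lies inside that gene. ETS family motifs were searched on both strands in the 250 bases before each start, GAGGAA, a core bound by PU.1, and GGAAGT, a more general ETS core. Their matches, which overlap where ACTTCCTC occurs, are in capitals, and bases inside an annotated exon are left out.
Fcgr1, chr3:96293970-96294219, minus strand: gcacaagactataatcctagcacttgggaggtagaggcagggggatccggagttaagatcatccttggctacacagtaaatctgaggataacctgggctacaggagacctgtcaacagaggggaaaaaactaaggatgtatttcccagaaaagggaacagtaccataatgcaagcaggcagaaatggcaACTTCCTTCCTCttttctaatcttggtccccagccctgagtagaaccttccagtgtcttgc
Fcgr3, chr1:171059404-171059626, minus strand: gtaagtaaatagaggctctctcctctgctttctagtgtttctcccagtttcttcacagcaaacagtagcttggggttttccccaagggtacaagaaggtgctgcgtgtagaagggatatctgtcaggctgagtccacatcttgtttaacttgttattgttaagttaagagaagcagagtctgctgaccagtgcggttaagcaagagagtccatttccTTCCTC
Fcgr4, chr1:171018676-171018919, plus strand: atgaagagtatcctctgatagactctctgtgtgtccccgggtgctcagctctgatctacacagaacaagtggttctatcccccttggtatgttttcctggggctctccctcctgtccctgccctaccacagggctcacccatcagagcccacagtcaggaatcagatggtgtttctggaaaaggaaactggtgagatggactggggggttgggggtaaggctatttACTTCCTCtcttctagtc
GAGGAA was present before at least 1 start of Fcgr1, Fcgr3, Fcgr4 and Syk, and of 25.9% of the 27025 genes in the promoter table. GGAAGT was present before Fcgr1, Fcgr2b and Fcgr4, and before at least 1 start of 22.2% of genes. Either was present in 5 of the 6 members and in 40.2% of genes, counted the same way; Fcgr3 and Syk have 2 starts each, and Syk matched at 1 of them. CTTTGAT or CTTTGAA, forms of the motif of TCF/LEF factors, which act with beta-catenin, was present in 0 of the 6 and in 8.63% of genes. A match describes letters in this window and no binding was measured.

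Among the ligands, few transcripts were called. Of 9 tested genes for immunoglobulin chains and other Fc receptor ligands, 1 was lower and 1 higher, with a median log2 difference of -0.14, while DESeq2 called 1 lower and 3 higher. Ptx3, a pentraxin that binds Fc gamma receptors, fell from a mean of 5.45 to 1.44 CPM (log2 difference -1.91, SE 0.28, edgeR adjusted p = 0.00363). The light chain gene Iglc1 rose from 0.436 to 3.26 CPM (2.88, SE 0.70, edgeR adjusted p = 0.0291), a call that ended without Control replicates 1 and 2 (0.108). Igkc had means of 22.7 and 85.3 CPM (edgeR adjusted p = 0.0926) and Ighm 513 and 466 (0.823). IgG heavy chain RNA was scarce. Of the chains tested, Ighg2b had means of 2.51 CPM in Control and 2.17 CPM in UBKO (edgeR adjusted p = 0.944). Ighg3 had means of 2.29 and 1.77 CPM (edgeR adjusted p = 0.851). Ighg2c had 202 counts over all Control libraries and 6 over all UBKO libraries, and Ighg1 13 and 5, too few to test.

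Among 5 tested genes for other immunoglobulin receptors, 2 were lower and 0 higher. These were Fcrls (11.5 to 4.68 CPM, log2 difference -1.30, edgeR adjusted p = 0.0102), a myeloid Fc receptor-like protein, and Lgals3 (418 to 111 CPM, -1.92, 0.0116), a galectin that binds IgE. Fcgrt, the neonatal Fc receptor that recycles IgG, had means of 268 and 233 CPM (-0.20, edgeR adjusted p = 0.527). The IgE receptor chains that share Fcer1g were nearly absent, with 2 counts of Fcer1a over Control and 3 over UBKO, and 5 and 0 of Ms4a2.

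Of 13 tested receptors that pair with or signal through Fcer1g or Tyrobp, 9 were lower and 0 higher, with a median of -2.25. Trem2, a lipid-sensing receptor that pairs with Tyrobp, fell from 72.9 to 9.47 CPM (log2 difference -2.94, SE 0.48, edgeR adjusted p = 0.00551). Cd300lb (-3.39, edgeR adjusted p = 0.00202) and Cd300ld (-2.20, 0.00133), activating receptors of the CD300 family, and Pira2 (-2.26, 0.0014), a paired immunoglobulin-like receptor, also fell. Without Control replicates 1 and 2, 6 of 11 were called. Of 7 tested related adaptors and kinases, 1 was lower and 0 higher: Clec7a, a fungal glucan receptor that signals through Syk, at -1.97 (edgeR adjusted p = 0.00381). Zap70, the T cell relative of Syk, was at 15.6 and 16.8 CPM in Control replicates 1 and 2, far above the other libraries, and did not pass (edgeR adjusted p = 0.13).

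Upstream of Syk, 4 of 10 Src family kinases and their regulators were lower and 1 was higher, with a median of -0.37. The phosphatase CD45 gene Ptprc, which removes the inhibitory phosphate of Src family kinases, fell (log2 difference -1.74, edgeR adjusted p = 0.0013), as did the myeloid kinase Fgr (-2.19, 0.0145). The Fgr call ended without Control replicates 1 and 2 (0.056) and without UBKO replicate 3 (0.0519). Lyn was at -0.40 (edgeR adjusted p = 0.11). Yes1, expressed in many cell types, rose by 0.51 (0.0293), a call that ended under total-count scaling (0.401) and when Control replicates 1 and 2 were left out (0.12). Without these controls 2 of 10 were lower and 0 higher, as was the case with UBKO replicate 3 left out. Total-count scaling gave 7 lower and 0 higher, beside 4482 lower and 236 higher of the 16123 genes tested.

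Of 28 genes for Syk substrates and downstream signalling, 13 were lower and 0 higher, with a median of -1.22, and DESeq2 called 15 lower and 2 higher. The PI3 kinase genes of leukocytes fell, with Pik3cd at -1.62 (edgeR adjusted p = 0.00194), Pik3cg at -1.88 (0.00251) and the regulatory subunit Pik3r5 at -2.55 (0.00224). Btk, a kinase that activates phospholipase C gamma, was at -2.70 (0.00238). Without Control replicates 1 and 2, 13 of 28 were again lower, beside 782 of the 15957 genes tested. Total-count scaling gave 21 lower, beside 4482 of the 16123 genes tested.

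Of 16 tested genes listed as inhibitory phosphatases, adaptors and receptors, 14 were lower and 0 higher, with a median of -2.16. Ptpn6, the phosphatase SHP-1 of blood cells, was at -2.53 (edgeR adjusted p = 0.00133), the ITIM receptor Pirb at -2.61 (0.0014) and the adaptor Dok2 at -2.65 (0.00207). The sialic acid receptor Siglec1, listed with them although it has no ITIM, was at -2.35 (edgeR adjusted p = 0.00239). The widely expressed phosphatases Ptpn11 (-0.01, edgeR adjusted p = 0.946) and Inppl1 (-0.26, 0.495) did not pass. Inpp5d, the phosphatase that Fcgr2b recruits, was at -2.72 (0.0281). Its level was 125 and 107 CPM in Control replicates 1 and 2, 16.8 to 24.4 CPM in the other controls and 8.48 to 9.68 CPM in UBKO. Without those controls its log2 difference was -1.24 (edgeR adjusted p = 0.00542), and 11 of 15 genes on the list were lower. With UBKO replicate 3 left out, Inpp5d no longer passed (0.0833), and 9 of 16 were lower.

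Of 27 genes of the phagocytic actin machinery, 15 were lower and 0 higher, with a median of -0.63. Those that fell included the myosins Myo1f (log2 difference -3.01, edgeR adjusted p = 0.00133) and Myo1g (-2.62, 0.00143), the GTPase Rac2 (-2.01, 0.00194) and the WAVE complex subunit Nckap1l (-2.84, 0.00194). Smaller falls passed for the actin-severing protein Cfl1 (-0.69, edgeR adjusted p = 0.0186), the Arp2/3 subunits Arpc2 (-0.63, 0.0443) and Arpc1b (-0.52, 0.0435), and Marcks (-0.44, 0.0378). Of these 4 calls, that of Cfl1 held without Control replicates 1 and 2 (0.0331), and none held without UBKO replicate 3. The GTPases Rac1 (0.04, edgeR adjusted p = 0.851) and Cdc42 (-0.04, 0.856) did not pass. Leaving out Control replicates 1 and 2 gave 10 of 27 lower, and leaving out UBKO replicate 3 gave 9. With scaling by total counts, which shifts the median of all genes to -0.39, 20 were lower, beside 4482 of the 16123 genes tested.

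**Figure D5:**
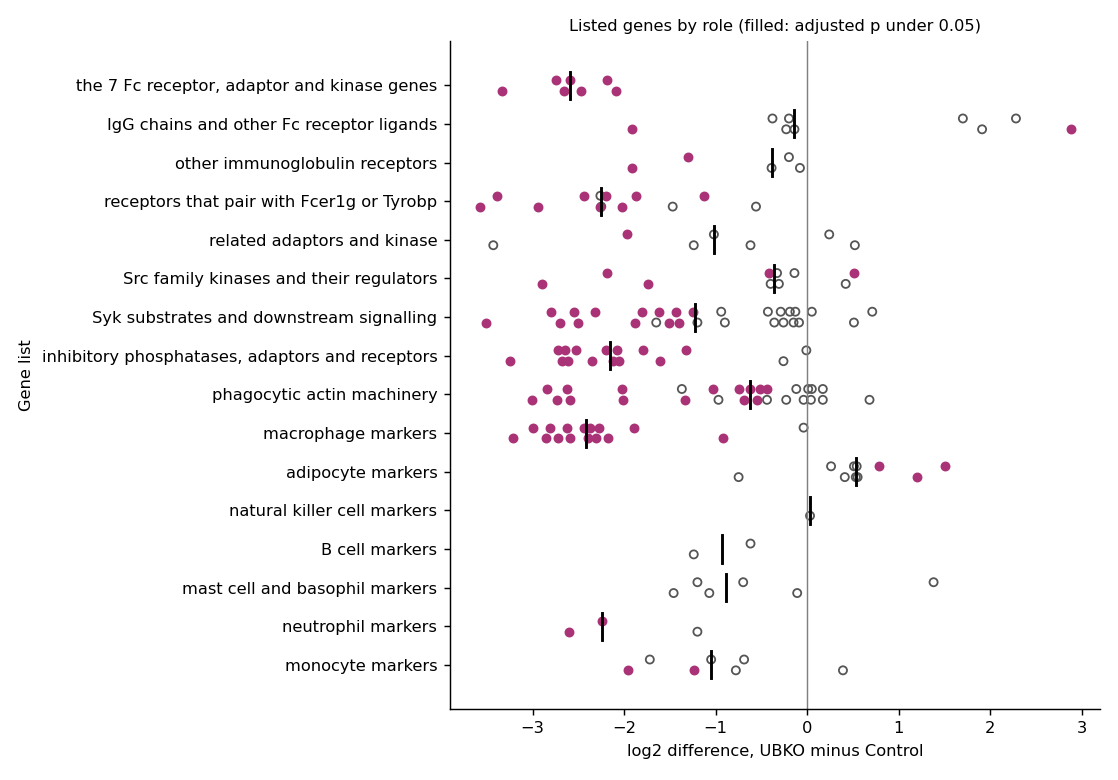
Log2 difference, UBKO minus Control, of the tested genes in each signalling and cell type list, with list medians. Medians are -2.16 for the inhibitory genes, -2.42 for macrophage markers, -0.63 for the actin machinery and 0.53 for adipocyte markers.

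Markers of other cells that carry these receptors, or that fill the tissue, were summed per library. Monocyte markers summed to 122 to 203 CPM in Control and to 49.3 to 67.9 CPM in UBKO, with 2 of 7 lower, F13a1 and Vcan. F13a1 was the largest part of that sum, at means of 104 CPM in Control and 26.8 CPM in UBKO. Ly6c2 alone was higher in mean (log2 difference 0.39, edgeR adjusted p = 0.371). Plac8 turned from -1.05 to 0.38 without Control replicates 1 and 2 (edgeR adjusted p = 0.422 and 0.798). Neutrophil markers summed to 17.7 to 36.1 CPM in Control and to 5.35 to 7.55 CPM in UBKO, with 2 of 3 tested genes lower. Mast cell and basophil markers summed to 14.1 to 28.4 CPM in Control and to 22.7 to 51.1 CPM in UBKO, a UBKO sum that was mostly Kit. Their median log2 difference was -0.89, so the sum and the median point in opposite directions. EdgeR called 0 of 6, with 2 lower and 1 higher at an unadjusted p under 0.05, and DESeq2 called 1 higher. Cpa3 was among the lower genes, at -1.20 (edgeR adjusted p = 0.129). The mast cell receptor Kit was at 1.38 (edgeR adjusted p = 0.0534), and at 2.09 (0.0103) without Control replicates 1 and 2. Of B cell markers, 2 could be tested and 0 were called by edgeR, with 1 at an unadjusted p under 0.05, and the B cell gene Ms4a1 had 27 counts over all Control libraries and 19 over UBKO. Adipocyte markers summed to 12600 to 24700 CPM in Control and to 21500 to 30700 CPM in UBKO, with 3 of 10 higher. Leaving out Control replicates 1 and 2, or UBKO replicate 3, left 1 of 10 higher. Total-count scaling gave 2 higher and 1 lower, beside 236 higher and 4482 lower of the 16123 genes tested. The part of each of these cell types in the result was not tested.

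The genes most like each member were those with the smallest root mean square difference of centred log2(CPM + 0.5) over the 9 libraries. Genes with a mean of at least 5 CPM were searched. The offset weighs most on genes with few reads, such as Fcgr4 and Fcgr1 in UBKO. Tyrobp was closest to Cd84 (0.082) and Adgre1 (0.123). Fcgr3 was closest to Csf1r (0.140) and Folr2 (0.159), Fcer1g to Lpxn (0.136) and Myo1g (0.136), and Syk to Fermt3 (0.136) and Arhgap30 (0.140). Fcgr1 was closest to Ccl6 (0.217), Fcgr2b to Qpct (0.233) and Fcgr4 to Pycard (0.156). Within the set, Fcer1g and Syk were closest, at 0.172, and Fcgr1 and Fcgr4 farthest, at 0.662. The libraries are the same in each comparison, so these values describe likeness and are not tests.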

How the data were processed

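RNA was isolated with a column kit and made into paired-end TruSeq libraries, per the labels' protocols. HISAT2, SAMtools 1.3.1, Cuffdiff and build mm10 are named per the submitters' processing notes. The sources used here do not give the roles of these tools, the counter, the annotation or the use of strand. The deposited table holds raw read counts per gene and the authors' FPKM values per library, and the authors' comparison with its log2 fold changes and p-values and q-values. The FPKM of the authors matched count over length and library scale for 12848 genes, with a coefficient of variation of at most 1.5e-05. No column of per-sample values was left unused (0).

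The members and gene lists were chosen with earlier results of these data known. Counts were scaled by TMM, filtered with filterByExpr and tested with edgeR 4.0.16 (R 4.3.3) by a two-sided quasi-likelihood test of genotype, with Benjamini-Hochberg adjustment over 16123 genes and a threshold of 0.05. Log2 differences are UBKO minus Control. limma 3.58.1 and DESeq2 1.42.0 served as alternatives. Ratios used an exact permutation test in scipy 1.17.1. Named genes are the 7 members, Ctnnb1, the neighbours of the members, the genes most like each member, the 4 tested genes with the smallest p of each role list and 2 of each immune marker list. Adipoq, Mertk, Cd14, Trem2, Ighm, Ighg1, Ighg2b, Ighg2c, Ighg3, Lyn, Ptpn11, Inppl1, Inpp5d, Rac1, Cdc42, Cfl1, Arpc2, Arpc1b, Marcks, Ly6c2, Plac8, Ms4a1, Fcer1a and Ms4a2 were singled out after their values were seen. Some genes that the rule names are not reported here. On simulated counts with 16123 genes, the test recovered 44% of genes changed by a log2 of 1 and 90% of those changed by 2, with 5 false calls of 161. Replicates differed beyond sampling noise, with a chi-square of at least 17.0 times its degrees of freedom for every pair.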

Additional observations from a re-analysis of the deposited data

Results flagged for a closer look

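Among 36 sets of library values of the members and their ratios, 3 had 1 library far from the rest by Dixon's criterion, and chance marks about 1 in 20 such sets. Fcgr2b in Control replicate 1 was at 67.3 CPM, above the other 4 controls. Syk in UBKO replicate 4 was at 6.4 CPM, below the other 3 UBKO libraries. The log2 ratio of Syk to the macrophage markers was -0.87 in the library labelled UBKO replicate 3, away from the other UBKO libraries.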

How the results depend on the processing

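All 7 members stayed lower and past the threshold in all 133 combinations of member and alternative, with log2 differences from -3.78 to -2.26 for Fcgr1 and from -2.61 to -1.58 for Fcgr4, and a highest adjusted p of 0.0407 (Fcgr4, without the library labelled UBKO replicate 3). Of the 165 ratio alternatives, 159 kept their sign. Against Csf1r and Adgre1 alone, Fcgr3, Fcer1g and Syk did not. Fcgr4 to Fcgr2b turned to -0.11 with no offset. Without Control replicates 1 and 2 and UBKO replicate 2, Fcer1g to macrophage markers turned to 0.03. With log2(FPKM + 1), 7 ratios passed, and the ratio of Syk to macrophage markers reversed to 0.48 (adjusted p 0.0349); with no offset, an alternative chosen after seeing the data, 0 passed. The counts over lists without some libraries were also added after seeing the data.

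Counts over all genes depended more on the processing, and the cause was not tested. Against 626 higher and 1219 lower genes, scaling by total counts gave 236 and 4482, with a median over genes of -0.393. No filter gave 300 and 810, the DESeq2 Wald test 1136 and 1894, limma on FPKM 277 and 3748, and voom with array weights 1070 higher. Leaving out 1 library gave 152 to 954 higher and 604 to 1495 lower, with both lowest counts without UBKO replicate 3. Without Control replicates 1 and 2 there were 240 and 782, and without UBKO replicate 2 as well 411 higher. The authors' deposited table calls 284 higher.

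The replicate numbers are shared between groups. Deviations of same-numbered libraries correlated at -0.179, 0.54, 0.095 and 0.164 for replicates 1 to 4. The labels name nothing else that same-numbered libraries share, and these values cannot show that they share nothing. What lies behind the higher value of replicate 2 was not tested. With the number as a replicate block, 191 genes were higher and 556 lower, all 7 members were still lower and 0 ratios passed; 4 pairs cannot give an exact p below 0.125. UBKO libraries hold 9 to 32 reads of Fcgr4 and Fcgr1, which limits the precision of their folds.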
